A study of Mus musculus with 12 samples.

Results

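MHC class II molecules display peptides from endosomes to CD4+ T cells. Their α and β chains are encoded in mouse by H2-Aa and H2-Ab1 (the I-A molecule) and by H2-Eb1 (the β chain of I-E). Cd74 encodes the invariant chain, which fills the peptide groove of new class II dimers, guides them to endosomes and, at the cell surface, also serves as a receptor for the cytokine MIF. H2-DMa, H2-DMb1 and H2-DMb2 encode the chains of H2-M, which exchanges the last invariant chain fragment for antigenic peptide. Ciita encodes the transactivator that switches the class II promoters on, constitutively in B cells and dendritic cells and after interferon-γ in many other cells. These 8 genes were taken as a list, chosen with earlier results of these data known. They were matched by Ensembl identifier among 22274 rows of the tumor table and by symbol among 19496 named rows of the macrophage table. All 8 had a row in both tables.

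The RNA-seq data comprise 12 mouse libraries in 4 groups of 3. Per the labels, the shChrebp and shCtrl libraries came from subcutaneous tumors that MC38 cells, a mouse colon adenocarcinoma line, formed in C57BL/6 mice, with cells carrying a knockdown hairpin against Chrebp or a control hairpin. The hairpin is in the injected cells, so any host cells in a tumor keep Chrebp. The other groups are bone-marrow-derived macrophages (BMDM), which the series text describes as kept with IFN-γ and LPS over 4 h before 200 µM choline was given over 24 h, while the labels give PBS for the controls without a time and do not state their earlier exposure. Tumors were compared to ask what differs with the hairpin against Chrebp, a glucose-responsive transcription factor whose gene is Mlxipl. Macrophages were compared to ask what differs with choline. Whether replicates are separate mice or separate macrophage cultures is not stated, so a p-value here reflects the spread among these libraries alone and may reflect technical spread.

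The tumor libraries held 17775253, 24181897 and 16010568 counts in shChrebp and 15844794, 16614899 and 19177328 in shCtrl. The macrophage libraries held 34961729 to 35371406 reads with choline and 34995243 to 35394361 with PBS, recovered from their FPKM values. Mlxipl, against which the hairpin is directed, had 1, 1 and 2 counts in shChrebp and 3, 1 and 1 counts in shCtrl, too few to check the labels (rate ratio 0.710, 95% exact interval 0.141 to 3.297). The library shCtrl 1 stood apart in epithelial markers, with 140 counts of the adhesion gene Epcam against 6 to 17 in the other 5 tumor libraries, and results that rest on it are given with and without it. Leukocyte RNA was scarce in the tumors: Ptprc, the gene of CD45, had 4, 11 and 8 counts in shChrebp and 7, 5 and 6 in shCtrl, and Cd3e, Cd3d and Cd8a of T cells were at 0 in all 6. The 5 endothelial markers were near absent too, none with enough counts for the test, at a summed 0.872 to 1.51 CPM (counts scaled to the library total) in shChrebp and 1.47 to 3.35 CPM in shCtrl. The libraries are labelled as tumor tissue, and the share of host cells in them was not tested. In the macrophages, Adgre1 (F4/80) was at 75.5 to 83.3 FPKM with choline and 61.3 to 63.2 FPKM with PBS. Of 12 macrophage markers listed, 9 had a row in the macrophage table, and 2 of these averaged under 1 FPKM. C1qa, C1qb and C1qc had no row.

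The class II promoters share a module in which an X box, bound by the RFX complex, lies upstream of a Y box, bound by NF-Y, and Ciita is recruited to both. The stretches below are shown because they carry this module in 3 of the listed genes, taken from RefSeq promoter windows on GRCm38.p6. In each, the capitals mark the letters GNAAC within the X box and ATTGG, the core of the Y box, with 10 bases on either side.
H2-Aa: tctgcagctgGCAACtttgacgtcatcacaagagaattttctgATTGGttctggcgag
H2-Eb1: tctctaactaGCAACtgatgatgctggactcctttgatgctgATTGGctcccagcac
H2-DMb1: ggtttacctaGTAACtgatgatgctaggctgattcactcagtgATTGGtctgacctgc
They lie at chr17:34287857-34287914 on the minus strand, chr17:34305766-34305822 on the plus strand and chr17:34153087-34153144 on the plus strand. The X letters began 81, 91 and 94 bases before the RefSeq start, and the letters between the capitals numbered 28, 27 and 28. Among 32841 promoter windows of 250 bases, 79.6% held GNAAC and 33.9% held ATTGG on either strand. The order GNAAC then ATTGG, 15 to 35 bases apart on the same strand, was found in 2.98% of the windows, and at 27 or 28 bases in 0.335%. The letters were chosen after these sequences were read, so the matches are a description. Windows were at hand for 5 of the 8 genes, and those of H2-DMa and H2-DMb2 did not hold the pair.

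In MC38 tumors, Cd74 fell steeply with the Chrebp hairpin, H2-DMa fell less, and H2-DMb1 was abundant in both groups. The other 5 genes were near absent. Only Cd74, H2-DMa and H2-DMb1 had enough counts for the test across all genes, and 2 of these 3 fell and 0 rose, where 38.2% of all 11780 tested genes were called, 19.7% lower and 18.6% higher. Since genes passed the filter partly through the group in which they were higher, this count supports nothing by itself.

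Cd74 had 15, 21 and 10 counts in the shChrebp libraries, against 86, 74 and 86 counts in the shCtrl libraries. Every shChrebp value lay far below every shCtrl value. Scaled to library size this was 0.777 ± 0.137 CPM in shChrebp and 4.80 ± 0.561 CPM in shCtrl (SD, n = 3 each). The log2 fold change was −2.59 ± 0.25 (SE), or 6.04-fold lower in shChrebp, and the Benjamini-Hochberg adjusted p was 5.901e-10 in the quasi-likelihood test of edgeR. Of the 11780 genes tested, 30 had a lower log2 fold change. The counts behind it are few, 46 summed over shChrebp and 246 over shCtrl, so counting error alone leaves a rate ratio of 0.166 with a 95% exact interval of 0.118 to 0.228. Without shCtrl 1 the log2 fold change was −2.49.

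H2-DMa, the α chain of H2-M, had 32, 38 and 26 counts in shChrebp and 56, 49 and 51 counts in shCtrl. As CPM it averaged 1.66 ± 0.114 in shChrebp and 3.06 ± 0.449 in shCtrl (SD, n = 3 each), and the groups did not overlap. The log2 fold change was −0.87 ± 0.23 (SE), with an edgeR adjusted p of 0.003668. Exons of H2-DMa overlap those of Brd2, a bromodomain gene on the opposite strand, and any use of strand in the counting is not given in the sources used here. Brd2 itself had 328 to 341 CPM in shChrebp and 339 to 351 CPM in shCtrl, which is −0.05 as a log2 fold change (edgeR adjusted p = 0.1941), and its part in the H2-DMa value was not tested.

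H2-DMb1, the β chain partner, had the highest level of the 8 genes in tumors. It had 541, 739 and 491 counts in shChrebp and 484, 463 and 538 counts in shCtrl, or 30.5 ± 0.205 CPM and 28.9 ± 1.54 CPM (SD, n = 3 each). The groups overlapped. The log2 fold change was 0.08 ± 0.07 (SE), with an edgeR adjusted p of 0.3633 and a rate ratio of 1.06 (95% exact interval 0.987 to 1.13). Part of its sequence is shared with H2-DMb2, and 22.7% of its 50-base words also occur there. The H2-DMb2 identifier was nevertheless at 0 counts in all 6 tumor libraries, which allows up to 0.125 to 0.190 CPM in a library. The deposited symbol column names both rows H2-DMb1, and the length of 1404 bases implied by the counts and FPKM of the abundant row is that of the longest annotated H2-DMb1 transcript.

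**Figure D1:**
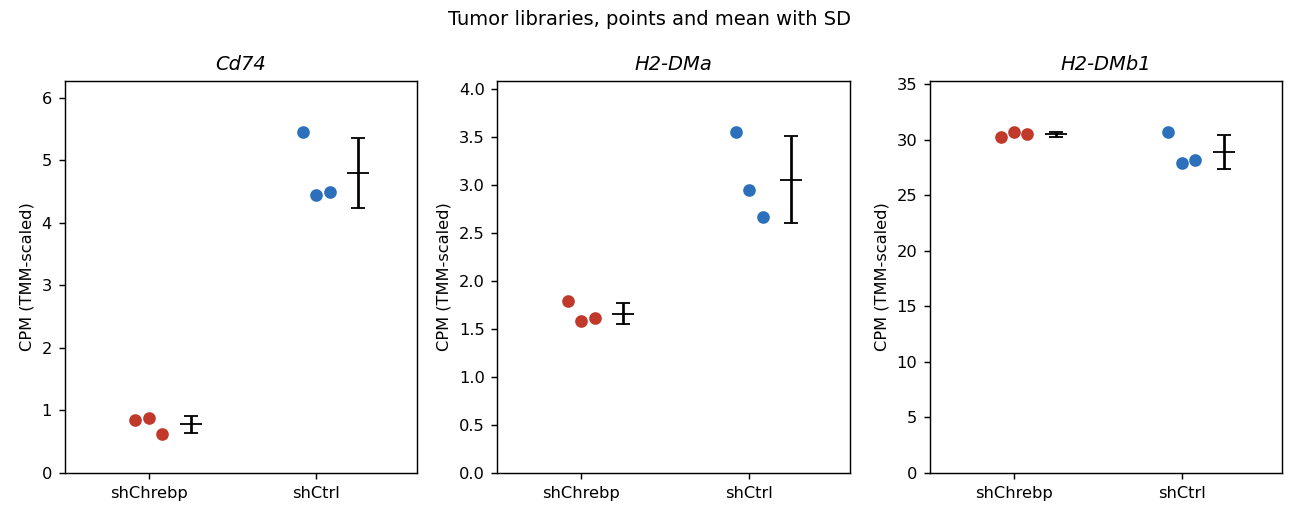
Cd74, H2-DMa and H2-DMb1 in the tumor libraries. The y axis is CPM scaled by TMM, each point is a library (shChrebp left, shCtrl right) and the bars give the mean and SD of 3 libraries. Cd74 lay between 0.620 and 0.872 CPM in shChrebp and between 4.45 and 5.45 CPM in shCtrl, while the H2-DMb1 groups overlapped.

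The genes of the classical chains were close to the detection limit in tumors, which libraries of this depth cannot resolve well. H2-Aa had 2, 2 and 3 counts in shChrebp and 14, 5 and 3 counts in shCtrl. The groups touched at 3 counts, and the high value was that of shCtrl 1. The summed counts were 7 in shChrebp and 22 in shCtrl, a rate ratio of 0.282 with a 95% exact interval of 0.102 to 0.684, which covers counting error only. A two-sided exact permutation test over the 6 libraries gave p = 0.2, where 3 against 3 cannot go below 0.1. Without shCtrl 1 the sums were 7 and 8, and the rate ratio was 0.538 (95% exact interval 0.166 to 1.70).

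H2-Eb1 had 2, 2 and 4 counts in shChrebp and 9, 5 and 2 in shCtrl, and the rate ratio was 0.444 (95% exact interval 0.164 to 1.10, exact permutation p = 0.3). H2-Ab1 had 1, 0 and 2 counts in shChrebp and 4, 2 and 1 in shCtrl, and the rate ratio was 0.380 (95% exact interval 0.0634 to 1.67, exact permutation p = 0.5). For all 3 chains the highest library was shCtrl 1. Together they had 5, 4 and 9 counts in shChrebp and 27, 12 and 6 in shCtrl. Without shCtrl 1 the sums were 18 counts in 3 shChrebp libraries and 18 counts in 2 shCtrl libraries.

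Ciita had 4, 2 and 2 counts in shChrebp and 3, 2 and 4 counts in shCtrl. The groups overlapped fully, and the rate ratio was 0.789 (95% exact interval 0.265 to 2.30, exact permutation p = 0.7). A difference in Ciita was not detectable at this depth. Its exons overlap those of Dexi on the opposite strand, which differed by 0.14 on the log2 scale (edgeR adjusted p = 0.3659). The fall of Cd74 was measured in libraries in which its transactivator and the chains that it escorts were present at a few counts each.

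Per gene length, the order of the genes differed between the tumor groups. In shChrebp, H2-DMb1 had 21.7 to 21.8 FPKM, H2-DMa 1.29 to 1.47 FPKM and Cd74 0.5 to 0.697 FPKM. In shCtrl, H2-DMb1 had 19.8 to 21.8 FPKM, Cd74 3.59 to 4.37 FPKM and H2-DMa 2.14 to 3.0 FPKM. In neither group did the libraries of these neighbours in the order overlap, so Cd74 stood below H2-DMa in all 3 shChrebp libraries and above it in all 3 shCtrl libraries. H2-Aa, H2-Eb1, H2-Ab1 and Ciita followed at 0.789 FPKM or less, with ranges too wide to order. Cd74 made up 2.07 to 2.91% of the summed FPKM of the 8 genes in shChrebp and 13.6 to 14.3% in shCtrl.

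**Figure D2:**
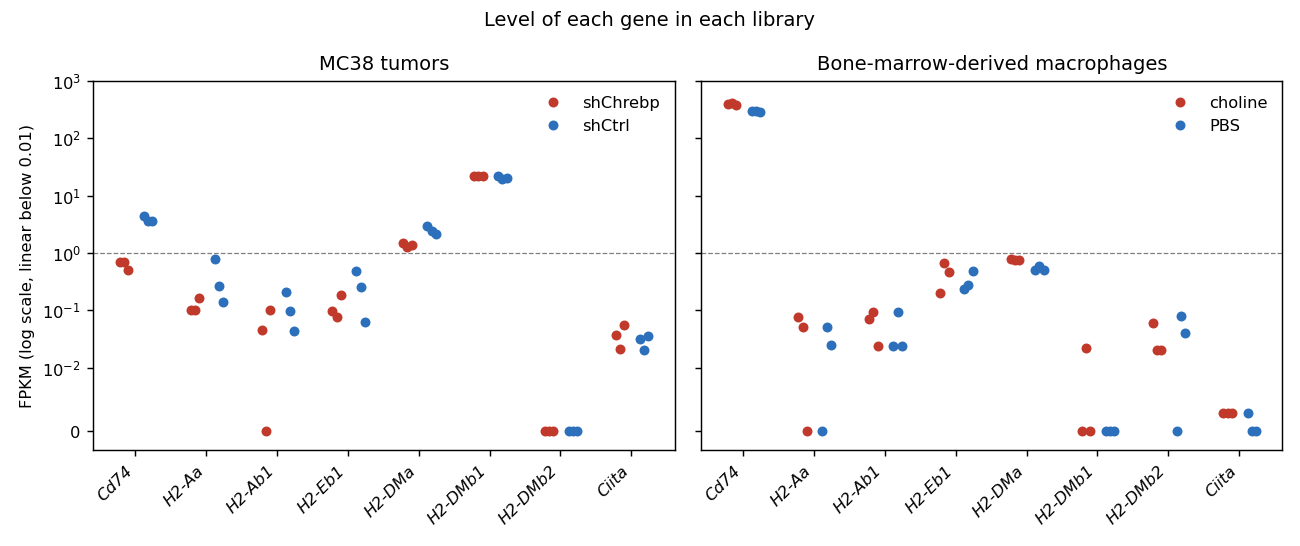
Level of each of the 8 genes in each library. The y axis is FPKM on a log scale that is linear below 0.01, the left panel holds the tumors (shChrebp red, shCtrl blue), the right panel the macrophages (choline red, PBS blue), and the dashed line marks 1 FPKM. In tumors H2-DMb1 lies near 20 and Cd74 is split by group; in macrophages Cd74 lies at 293 to 406 FPKM and every other gene below 1 FPKM.

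In bone-marrow-derived macrophages, Cd74 was among the most abundant transcripts and rose with choline, while the class II chains and Ciita were near absent in both groups. H2-DMa was low and higher with choline in the recovered reads. Only Cd74 reached the level of 1 FPKM in 3 libraries needed for the test, so 1 of 1 tested genes rose, where 57.4% of all 10028 tested genes were called, 28.2% higher and 29.2% lower. With that share, the direction of a single gene is not a result about the list.

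Cd74 had 404, 406 and 389 FPKM with choline, against 300, 301 and 293 FPKM with PBS. All choline libraries lay above all PBS libraries. The means were 399.9 ± 9.44 FPKM with choline and 297.9 ± 3.98 FPKM with PBS (SD, n = 3 each). The log2 fold change on log2(FPKM + 0.1) was 0.42 ± 0.03 (SE), or 1.34-fold higher with choline, with an adjusted p of 4.821e-06 by limma with Benjamini-Hochberg adjustment. These values rest on 20298, 20272 and 19298 reads with choline and 15053, 14996 and 14565 reads with PBS. By FPKM Cd74 ranked 138 to 141 of 19496 rows with choline and 186 to 190 with PBS. Among the tested genes 1015 had a higher log2 fold change. The PBS columns a and b share a heading in the deposited table and are therefore without a replicate number.

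H2-DMa had 230, 220 and 223 reads with choline and 152, 173 and 147 reads with PBS. The groups did not overlap. It stayed under the level needed for the main test, at 0.749 to 0.779 FPKM with choline and 0.503 to 0.590 FPKM with PBS, so its change is known from the recovered reads. There the log2 fold change was 0.50 ± 0.12 (SE), with an edgeR adjusted p of 0.00225, where 52.5% of 12279 genes were called, 25.1% higher and 27.4% lower. The FPKM and reads of H2-DMa imply a length of 8325 bases, against 2005 for the longest annotated transcript. Divided by that length, the same reads give a lower FPKM than by a transcript length. Whether all of these reads come from H2-DMa was not tested, so its FPKM is hard to set beside other genes. Brd2, which overlaps it, had 331.0 ± 2.10 CPM with choline and 349.1 ± 6.59 CPM with PBS, a log2 fold change of −0.06 on log2(FPKM + 0.1) (limma adjusted p = 0.1579), and its part in the H2-DMa value was not tested.

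H2-Eb1 had 12, 40 and 27 reads with choline and 14, 16 and 28 reads with PBS. Replicates of 1 group differed by more than the groups did, and edgeR on the recovered reads gave a log2 fold change of 0.43 ± 0.42 (SE, adjusted p = 0.4125). Strain C57BL/6 makes no I-E protein because its α chain gene lacks a working promoter, although the strain of these macrophages is not stated. H2-Aa had 3, 2 and 0 reads with choline and 0, 2 and 1 with PBS, and H2-Ab1 had 3, 4 and 1 reads with choline and 1, 4 and 1 with PBS. H2-DMb2 had 3, 1 and 1 reads with choline and 0, 4 and 2 with PBS. H2-DMb1, the most abundant of the 8 genes in tumors, had 0, 1 and 0 reads with choline and 0 in each PBS library. Ciita had 1 read in each choline library and 1, 0 and 0 reads with PBS. No difference in these 5 genes was detectable at this depth, where 3 reads correspond to 0.0840 to 0.0865 CPM.

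**Figure D3:**
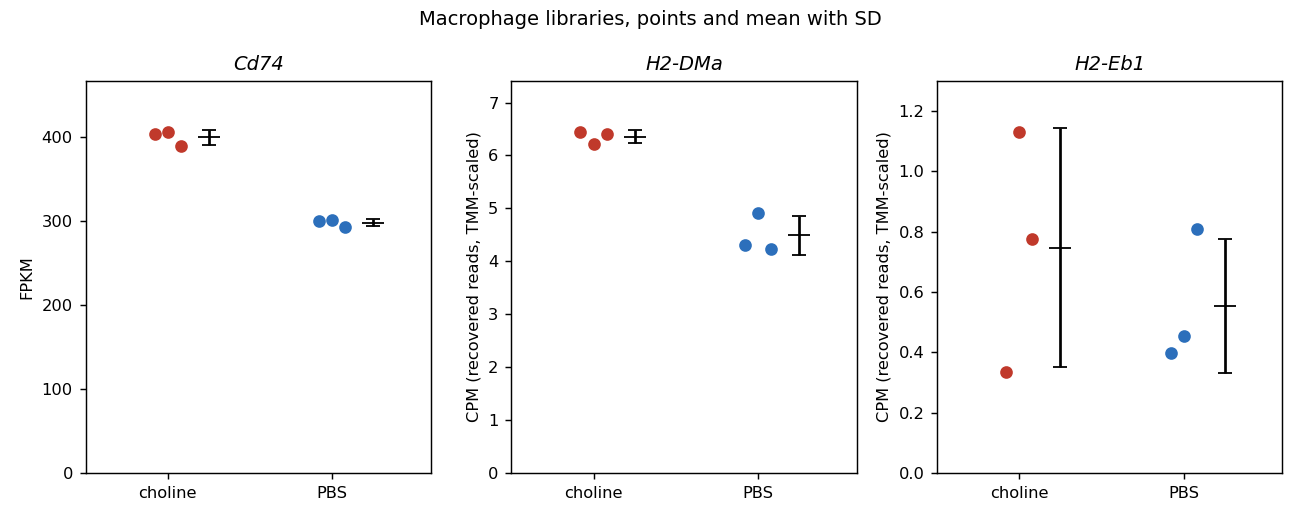
Cd74, H2-DMa and H2-Eb1 in the macrophage libraries. Cd74 is in FPKM and the other 2 genes in CPM of recovered reads scaled by TMM, each point is a library (choline left, PBS right) and the bars give the mean and SD of 3 libraries. Cd74 and H2-DMa did not overlap between groups, and H2-Eb1 did.

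In macrophages Cd74 was far more abundant than the chains it escorts. The summed H2-Aa, H2-Ab1 and H2-Eb1 reads were 18, 46 and 28 with choline and 15, 22 and 30 with PBS. By FPKM, Cd74 exceeded the sum of the 3 chains 492 to 1160 times with choline and 556 to 1153 times with PBS, so the ratio overlapped between groups. In tumors the same ratio was 1.10 to 3.96 in shChrebp and 2.95 to 14.7 in shCtrl. Cd74 made up 99.6 to 99.7% of the FPKM of the 8 genes in every macrophage library.

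Genes that act with the class II pathway were taken from lists that were also chosen with earlier results of these data known. They are given by count and median beside all genes tested, whose median log2 fold change was 0.00 in both comparisons. Each count of called members is to be read against all genes tested, of which 18.6% rose and 19.7% fell in tumors, and 28.2% rose and 29.2% fell in macrophages. Promoter-binding factors were expressed in both systems. In tumors 1 of 7 rose and 1 fell (median 0.05): Creb1, which binds the X box region, had a log2 fold change of 0.17 ± 0.04 (SE) and the NF-Y subunit gene Nfya −0.20 ± 0.05 (edgeR adjusted p = 0.001823 and 9.176e-04). Nfya missed the threshold by limma on log2(FPKM + 0.1) and log2(FPKM + 1), in a range of adjusted p from 2.772e-04 to 0.05437 over its 13 alternatives. In macrophages 3 of 7 rose and 2 fell (median 0.03). The RFX subunit gene Rfxap, at 3.48 to 3.84 FPKM with choline and 4.92 to 5.46 FPKM with PBS, fell by 0.50 on the log2 scale (limma adjusted p = 2.196e-04). The NF-Y subunit gene Nfyc fell by 0.54, and Nfya rose by 0.23. A further NF-Y subunit gene, Nfyb, rose by 0.15 ± 0.05 (SE, limma adjusted p = 0.04204). By edgeR on the recovered reads Nfyb was not called (adjusted p = 0.06416). Of the 3 that rose, Creb1 missed the threshold in 5 of 12 alternatives (limma adjusted p up to 0.08298), among them without PBS 1 (0.07083), PBS a (0.08298), choline 2 (0.07016) or choline 3 (0.07815). Rfx5, the DNA-binding subunit of RFX, and Rfxank did not pass the test in either comparison.

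Factors upstream of Ciita include the interferon-γ receptor, JAK kinases and the IRF factors. In shChrebp tumors 2 of 6 tested members fell and 1 rose (median 0.06). Irf1 had 829, 1111 and 722 counts in shChrebp and 1053, 1114 and 1328 counts in shCtrl. As log2 fold changes Irf1, an interferon-induced factor that acts on the interferon-inducible Ciita promoter, was at −0.57 ± 0.05 and the receptor gene Ifngr1 at −0.18 ± 0.06, while Irf4, a lymphoid factor, was at 0.73 ± 0.27 (edgeR adjusted p = 1.216e-10, 0.01623 and 0.0309). Ifngr1 missed the threshold under 4 of its 13 alternatives (adjusted p 0.007908 to 0.09734): by DESeq2 and without shChrebp 1 (edgeR 0.09024), shCtrl 2 (0.09734) or shCtrl 3 (0.05404). Irf4 missed it in 5 of 11 (adjusted p from 0.02392 to 0.1274), with DESeq2 and without shChrebp 2 (edgeR 0.07052), shChrebp 3 (0.1274), shCtrl 1 (0.09241) or shCtrl 3 (0.08184). Limma did not test Irf4 in tumors, since this low gene did not reach 1 FPKM in 3 libraries. In macrophages 2 of 7 rose and 3 fell (median −0.04). Jak2, a receptor kinase, had 19.0 to 19.7 FPKM with choline and 8.55 to 8.94 FPKM with PBS, a log2 fold change of 1.13 ± 0.05 (SE, limma adjusted p = 1.422e-07). Irf8 was at −0.69 ± 0.09 and Spi1, the gene of the myeloid factor PU.1, at −0.26 ± 0.04. Ciita was at 1 read or less in each of these libraries.

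Endosomal proteases prepare peptide and degrade the invariant chain. In shChrebp tumors 5 of 8 tested members fell and 2 rose (median −0.22), where 19.7% of all genes tested fell and 18.6% rose. The cathepsin gene Ctsz, the asparaginyl endopeptidase gene Lgmn and Sppl2a, whose protease cuts the last membrane fragment of the invariant chain, were each at −0.29 (edgeR adjusted p = 6.629e-08, 3.572e-06 and 1.038e-05). Ifi30, an interferon-inducible thiol reductase that opens disulfide bonds of antigens, rose by 0.37 ± 0.06. Ctss, which cuts the invariant chain in antigen-presenting cells, had 2, 6 and 6 counts in shChrebp and 32, 0 and 3 in shCtrl, with the high value again in shCtrl 1. With choline 7 of 8 tested members rose and 1 fell (median 0.28), where 28.2% of all genes tested rose and 29.2% fell. Ctsz had 421 to 429 FPKM with choline and 300 to 325 FPKM with PBS, a log2 fold change of 0.45 ± 0.04 (SE, limma adjusted p = 7.227e-06). Ctsb was at 0.37 ± 0.03, Ctsl at 0.30 ± 0.03 and Ctss at 0.29 ± 0.04, and Ifi30 fell by 0.43.

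Of the genes that let Cd74 act as a MIF receptor, Cd44, its signalling partner, had 22694, 29931 and 19853 counts in shChrebp and 33670, 35361 and 41339 in shCtrl. Its log2 fold change was −0.78 ± 0.03 (SE), and that of Ackr3, a chemokine receptor that also binds MIF, was −0.65 ± 0.04 (edgeR adjusted p = 3.863e-20 and 3.567e-14). These were the 2 of 4 tested members that fell (median −0.34), and Mif was at −0.02 ± 0.04 (edgeR adjusted p = 0.7364). In macrophages the ligand side fell with choline, in 2 of 3 tested members (median −0.37). Mif had 470 to 491 FPKM with choline and 663 to 699 FPKM with PBS, a log2 fold change of −0.50 ± 0.03 (SE, limma adjusted p = 2.113e-06). Its homologue Ddt was at −0.37 ± 0.05, and Cd44 at 0.06 ± 0.04 (limma adjusted p = 0.2241).

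Costimulatory ligands, which a T cell must meet beside class II, were almost all near absent in tumors. Icosl had 34, 45 and 41 counts in shChrebp and 62, 52 and 74 in shCtrl, a log2 fold change of −0.80 ± 0.22 (SE, edgeR adjusted p = 0.0041), and was the single member tested. Cd40 had 0 counts in each shChrebp library and 6, 3 and 5 in shCtrl. In macrophages all 3 tested members rose with choline (median 1.06), where 28.2% of all genes tested rose. Cd40 had 17.7 to 19.1 FPKM with choline and 7.31 to 8.64 FPKM with PBS, a log2 fold change of 1.18 ± 0.07 (SE, limma adjusted p = 9.539e-07). Icosl was at 1.06 ± 0.16 and Cd80 at 0.60 ± 0.05. Icosl reached 1 FPKM in 3 libraries only through the choline group. Neither the count nor the median of this list therefore supports anything by itself. Of the list of surface and signal regulators of class II, 2 members were tested in macrophages and they act in opposite directions. Marchf8, a ubiquitin ligase that removes class II from the surface, and Cd83, which opposes that removal by the related Marchf1, rose with choline by 0.30 ± 0.05 and 1.05 ± 0.04 (SE, limma adjusted p = 0.001132 and 1.575e-07). In tumors 1 of 2 tested members rose, Marchf8 at 0.18 ± 0.05 (edgeR adjusted p = 0.008528), which was at −0.04 on log2(FPKM + 0.1). Its adjusted p ranged from 0.001264 to 0.8927 over 13 alternatives, and the call also ended without shChrebp 2 (edgeR 0.08401) or shCtrl 2 (0.05095).

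The further class II genes H2-Oa and H2-Ob, which restrain H2-M, had summed counts of 2 and 5 in shChrebp and 0 and 2 in shCtrl, and 75 and 28 reads with choline and 56 and 13 with PBS. The class I pathway, whose genes answer to Nlrc5 as those of class II do to Ciita, fell in 9 of 9 tested members in shChrebp tumors (median −0.60), where 19.7% of all genes tested fell. The peptide transporter gene Tap1 was at −0.98 ± 0.05 and Nlrc5 at −0.48 ± 0.07 (edgeR adjusted p = 1.461e-16 and 6.190e-04). With choline 3 of 9 rose and 3 fell (median −0.05, against 28.2% and 29.2% of all genes tested), with Nlrc5 at 0.81 ± 0.13 and the immunoproteasome gene Psmb8 at −0.74 ± 0.08 (limma adjusted p = 4.138e-04 and 5.913e-05). Whether class I and class II genes differ in their change was not tested.

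**Figure D4:**
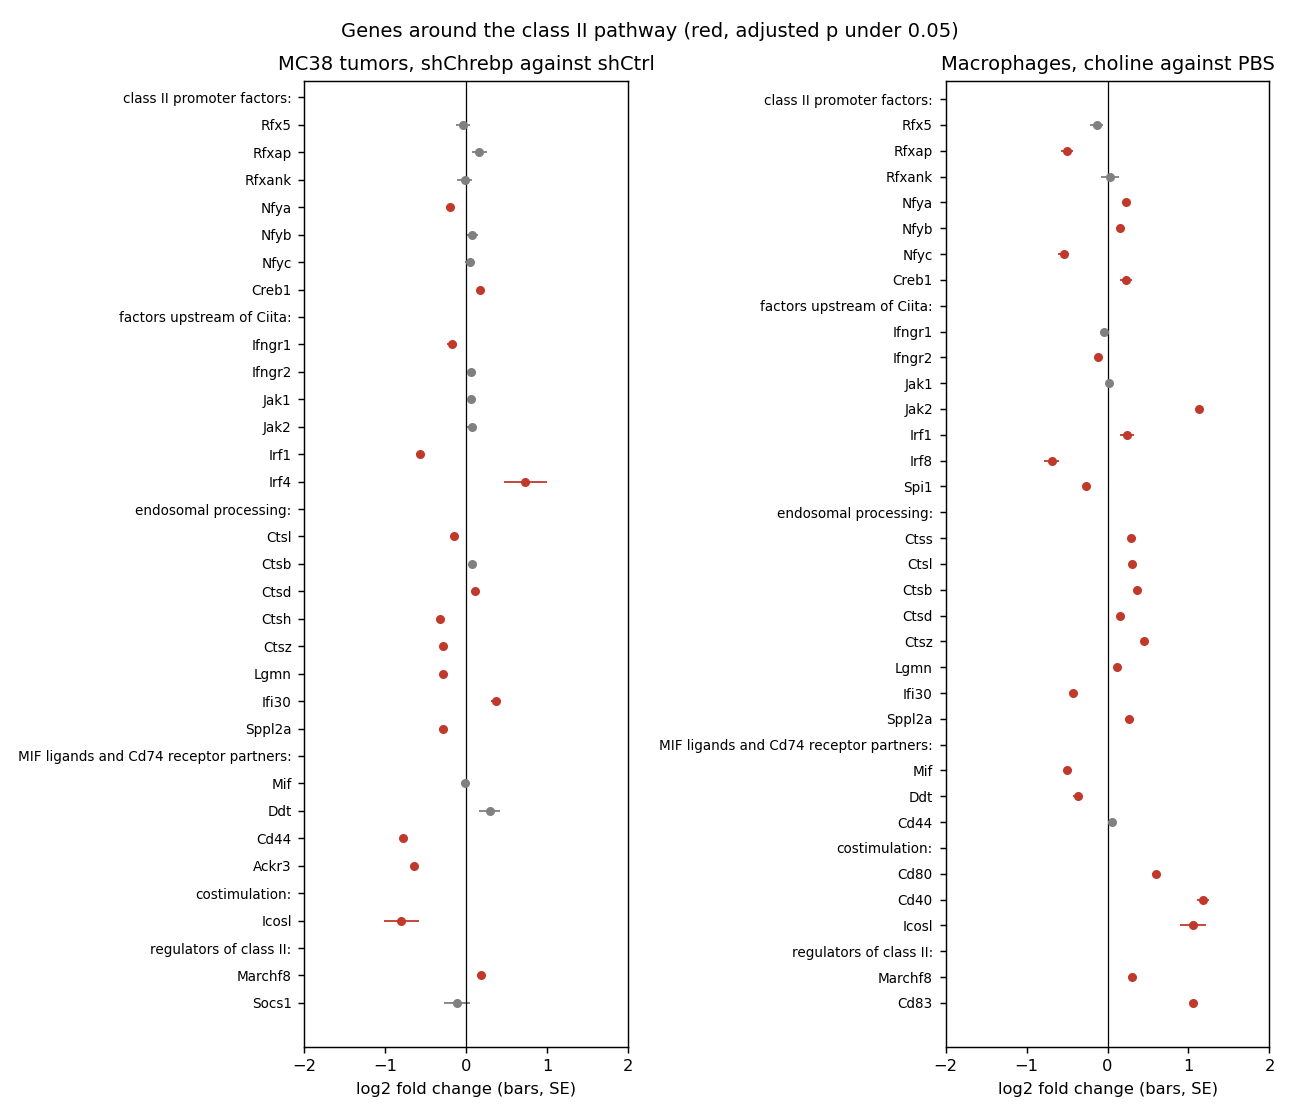
Log2 fold changes of the tested genes around the class II pathway, by list. The left panel shows shChrebp against shCtrl tumors and the right panel choline against PBS macrophages, bars are the SE, and red marks an adjusted p under 0.05 (edgeR left, limma right). Icosl has the lowest value of the tumor panel at −0.80, and Cd40 the highest of the macrophage panel at 1.18.

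Markers of cells that carry class II moved only in part with these genes. In tumors, the summed macrophage list was 15.7 to 18.4 CPM in shChrebp and 30.4 to 33.8 CPM in shCtrl. Of its 4 tested members 2 were lower, where 19.7% of all genes tested fell. Mpeg1, 1 of these 2, passed the filter through its shCtrl counts, so this count supports nothing by itself. Under the filter were 8 of 12 members, and 0 members were at 0 counts throughout. The fall lay in Cd68, a lysosomal protein also made outside macrophages, with 198, 292 and 177 counts in shChrebp and 373, 410 and 482 in shCtrl, and in Mpeg1, with 12, 6 and 7 counts in shChrebp and 37, 23 and 28 in shCtrl. Defining markers were near absent: Adgre1 had 0, 1 and 1 counts in shChrebp and 1, 1 and 0 in shCtrl, and Csf1r had 4, 5 and 5 counts in shChrebp and 11, 0 and 4 in shCtrl. The pan-leukocyte list overlapped, at 3.53 to 5.03 CPM in shChrebp and 3.303 to 6.33 CPM in shCtrl. The B cell list did not, at 4.72 to 6.35 CPM in shChrebp and 6.59 to 7.22 CPM in shCtrl. Of its 6 members 5 averaged under 1 CPM. The 1 member tested was not called, at a log2 fold change of −0.28. The dendritic cell list, at 172 to 184 CPM in shChrebp and 206 to 220 CPM in shCtrl, was mostly Fscn1, which many other cells make, and Flt3 and Cd209a were at 0 in all 6 libraries. The epithelial list was at 10.8 to 11.7 CPM in shChrebp and 8.84 to 58.9 CPM in shCtrl, the high value being that of shCtrl 1. The part of these markers in the Cd74 value was not tested, and fewer cells of a type and less RNA per cell cannot be told apart in bulk libraries. In macrophages, 4 of 7 tested macrophage markers rose with choline, where 28.2% of all genes tested rose. Among them was Adgre1 at 0.34 ± 0.04 (SE, limma adjusted p = 1.366e-04). Every dendritic cell marker with a row was under the level tested.

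The genes most like these in their pattern over libraries were ranked by Pearson's r over the 6 libraries of a table. In tumors the mean profile of Cd74, H2-DMa and H2-DMb1 was closest to those of Ucp2, a mitochondrial carrier gene (r = 0.995), Papss2, a sulfate-activating enzyme gene (0.995), Gpr180 (0.989), Elovl5, a fatty acid elongase gene (0.988), and Pdzd4 (0.987), of 11405 genes compared. In macrophages Cd74 was closest to Tsc22d3, a glucocorticoid-induced gene (r = 0.999), Rapgef2, Otub2, Marchf8 and Angptl6, of 9951 genes. Each r is a description over 6 libraries that fall into 2 groups. The tumor mean weighs Cd74 and H2-DMa, which fell, equally with H2-DMb1, which was not called. It is therefore not the pattern of Cd74 alone. The log2 fold changes of the named tumor genes lay between −0.87 (Ucp2) and −0.15 (Elovl5).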

How the data were processed

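RNA-seq of 6 tumor and 6 macrophage libraries was used. Per the file headers, the authors deposited estimated counts and FPKM per Ensembl gene for tumors (92.0% of counts whole, rounded here) and FPKM per gene for macrophages; the submitters' processing notes name build GRCm39. Aligner, counter and strand: not given in the sources used here. Tumor rows were named by identifier through GENCODE names (22219 of 22274 rows), which give names and lengths only. Reads were recovered from the macrophage FPKM steps, whole within 0.1 in 19494 of 19496 rows and in 0 of 500 shuffled rows; the 2 rows without a name were left out.

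Tumors were tested with edgeR 4.0.16 (quasi-likelihood, TMM, filterByExpr), macrophages with limma 3.58.1 on log2(FPKM + 0.1), which understates changes of low genes, at 1 FPKM or more in 3 libraries. P-values were Benjamini-Hochberg adjusted over all genes at 0.05; edgeR and DESeq2 1.42.0 on recovered reads, other filters, scalings and left-out libraries were alternatives. Genes under the filter have counts, exact binomial intervals at 95% (counting error only) and exact permutation tests of CPM. Replicates differed by more than counting noise (chi-square per degree of freedom at least 2). The methods were tested on simulated data. The 8 genes and all lists were chosen with earlier results of these data known; named are the 8 genes and up to 4 called members per list by smallest adjusted p. Mlxipl, Brd2, Dexi, Nlrc5, Psmb8, Ctss, Cd40, Ctsl, Nfyb and the markers named were added for their role or after their values were seen. The list of factors upstream of Ciita holds 1 further gene that is not reported here.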

Additional observations from a re-analysis of the deposited data

How the results depend on the processing

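The calls of Cd74 and H2-DMa in tumors and of Cd74 in macrophages held under every alternative run (13 tumor and 12 macrophage settings), and H2-DMb1 was called in none. The tumor Cd74 log2 fold change lay between −2.69 and −2.47 with a library left out and was −1.57 on log2(FPKM + 1), a scale that shrinks low genes; H2-DMa lay between −0.97 and −0.75 and was −0.56 on that scale. Macrophage Cd74 lay between 0.41 and 0.44. Genes called lower in tumors numbered 1503 and 1508 by limma on log2(FPKM + 0.1) and log2(FPKM + 1), against 2316 by edgeR; the cause was not tested. The listed genes called higher in macrophages numbered 2 with no FPKM filter and with edgeR or DESeq2 on recovered reads, against 1, since H2-DMa is then tested. Tumor Marchf8 turned to −0.04 by limma on either FPKM scale. Its call, and those of Nfya, Ifngr1 and Irf4 in tumors and of Creb1 and Nfyb in macrophages, ended under some alternatives. With libraries left out, a choice made after seeing the data, the tumor rate ratios lay between 0.206 and 0.538 for H2-Aa, 0.175 and 0.650 for H2-Ab1 and 0.307 and 0.703 for H2-Eb1, each highest without shCtrl 1 except H2-Ab1, highest without shChrebp 2. Replicate numbers did not pair the tumors (same-number correlations −0.0641 to 0.0579), and a replicate block gave 2264 genes higher and 2376 lower, against 2189 and 2316, with Cd74 at −2.60 and no call of the 8 genes changed. No paired analysis was possible because, in macrophages, 2 of the 3 PBS columns share a heading, so that 1 PBS library carries a usable number. Depth limits the classical chains and Ciita, which were at 14 counts or fewer in each tumor library.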
